A study of Homo sapiens with 6 samples.

Results

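Integrins are the receptors by which a cell holds on to its matrix, and the adaptors described here couple them to the actin cytoskeleton and to signalling. The genes were taken by a rule on gene symbols from a deposited RNA sequencing table of BT549, a human breast cancer cell line: all integrin alpha subunit genes, the integrin beta subunit genes ITGB1 to ITGB8, and 15 named adaptor genes. This gave 41 of the 19923 genes in the table, of which 26 were receptors (18 alpha and 8 beta subunits) and 15 were adaptors. The samples were 3 libraries of BT549 cells given a treatment named only as ENL and 3 libraries of BT549 cells named control. Both groups share the cell line, its tissue label and total RNA as input. Full name, dose, time and vehicle of ENL are not stated, nor is the handling of the control cells. No label ties the libraries to separate cultures, and the p-values cover just the spread among these 6 libraries, which may be technical.

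An integrin is a pair of an alpha and a beta subunit that spans the plasma membrane, and the pairing decides which matrix protein is bound. Talins and kindlins bind the cytoplasmic tail of the beta subunit and switch the receptor on, vinculin, parvin and integrin-linked kinase carry the load to actin, and focal adhesion kinase, SRC and the scaffold p130Cas turn adhesion into signals. In breast cancer cells of mesenchymal character this machinery is known for its part in spreading and migration.

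Library totals were 74457932 to 85310759 units in ENL and 76387436 to 80964005 in control. Here 1 sequenced fragment was taken to be worth about 4 units, an estimate by which the number of fragments was lower by that factor. Levels are given as CPM, counts normalised to library size after scaling by trimmed means. ENL library 3 stood apart: its chi-square per degree of freedom against the other ENL libraries was 45.5 and 52.3, against 20.2 to 22.5 for the other pairs within a group. The labels call the source mammary gland epithelial tissue. Of 5 mesenchymal markers 3 rose (VIM, CDH2 and FN1), 1 fell (SPARC) and ZEB1 did not pass. SPARC had the log2 fold change -1.83 ± 0.07 (SE, quasi-likelihood test of edgeR, adjusted p = 1.93e-05), at 92.7 CPM in ENL and 331 in control. The summed level of the 5 was 5975 to 6884 CPM in ENL and 3208 to 3923 in control. VIM, which makes the filament protein vimentin, gave most of it and rose by 1.12 ± 0.14 on the log2 scale (adjusted p = 0.00122). Of 6 luminal and epithelial markers KRT8 rose and none fell, with a summed level of 56.7 to 68.6 CPM in ENL and 37.6 to 48.8 in control, while PGR was at 0 in all 6 libraries and CDH1 and EPCAM stayed at or under 0.358 CPM. The 3 leukocyte markers summed to 0 to 0.308 CPM in ENL and 0.0471 to 1.49 in control. The part of these markers in the results was not tested.

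Both receptors and adaptors held genes that rose and genes that fell in ENL-treated cells. Of the receptors, ITGB4 rose and ITGA3, ITGA4, ITGA6 and ITGB5 fell. Of the adaptors, TLN2, BCAR1, FERMT2, ZYX, ILK, VCL and SRC rose and CAV1, FERMT1 and MSN fell. Calls and adjusted p-values come from the quasi-likelihood test of edgeR, adjusted by Benjamini-Hochberg over all 14086 genes tested, with a threshold of 0.05. In bulk RNA, fewer cells of a kind and less RNA per cell cannot be told apart.

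By count, 1 of 21 receptors with enough reads to be tested was higher and 4 were lower in ENL, and 7 of the 15 adaptors were higher and 3 lower. Over all genes tested, 20.0% were called higher, 18.4% lower and 38.4% in either direction. Receptors were called in 23.8% of cases and adaptors in 66.7%. Many receptors were barely detected, and among genes that averaged at least 5 CPM over all libraries 5 of 11 receptors (45.5%) were called, near the 43% of all 10503 such genes, against 66.7% of the 15 adaptors. By direction, 1 of these 11 receptors (9.09%) was higher and 4 (36.4%) were lower, against 23.9% and 19.1% of all such genes. For the adaptors these shares were 46.7% and 20%. The median of those 11 receptors was -0.21, against 0.034 for all such genes. The median log2 fold change was -0.54 for all 21 receptors tested, 0.02 for the adaptors and -0.02 for all genes. The difference between the 2 classes was not tested, since members of a class are not replicates. In 8 of the 36 members tested every ENL library lay above every control library, and in 14 every ENL library lay below, against 26.4% and 27.6% of all genes tested (54.0% in either direction). Scaling by library totals alone moved the median of all genes to -0.23 and gave 1804 higher and 3996 lower genes in place of 2819 and 2585. On that scale 1 receptor was higher and 8 were lower, 4 adaptors were higher and 5 lower, and the adaptor median became -0.19, while none of the 15 called members changed direction.

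**Figure D1:**
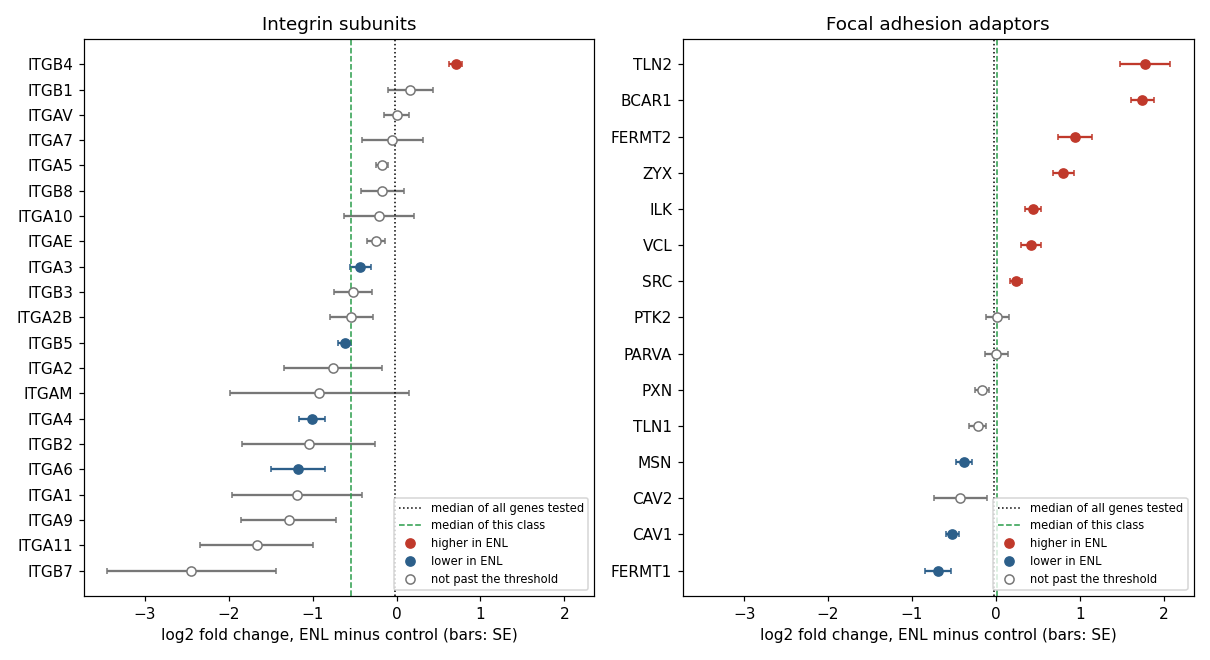
Log2 fold change of each tested integrin subunit (left) and adaptor (right), ENL minus control, with its standard error as a bar. Filled points passed the threshold, and adaptors run from -0.69 for FERMT1 to 1.78 for TLN2, receptors from -2.45 for the barely detected ITGB7 to 0.70 for ITGB4.

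The receptors differed widely in level. Per kilobase of the longest annotated transcript, ITGB1 had 467 CPM per kb in ENL and 417 in control, far above ITGA3 (46.2 and 62.4), ITGA5 (28.4 and 31.9) and ITGB4 (21.1 and 13.0). ITGB1 made up 92.6% ± 2.79 (SD, n = 3) of the summed per-length level of beta subunits in ENL and 92.7% ± 0.54 in control. Among alpha subunits ITGA3 took 41.2% ± 3.72 in ENL and 42.9% ± 3.43 in control, and ITGA5 took 25.4% ± 2.64 and 21.9% ± 0.67. The order of the 3 most abundant alpha subunits per length, ITGA3, ITGA5 and ITGA10, was the same in both group means. The leukocyte alpha subunits other than ITGAE were at or near the limit of detection: ITGAL, ITGAX, ITGAD and ITGAM had at most 0.176 CPM in any ENL library and at most 0.679 in any control library, where 3 fragments come to between 0.137 and 0.176 CPM. ITGA8 had 0 in all 6 libraries, which allows up to 0.176 CPM in ENL and 0.148 in control, counting error only. ITGA8, ITGAX, ITGAL, ITGAD and ITGB6 had too few reads to be tested.

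**Figure D2:**
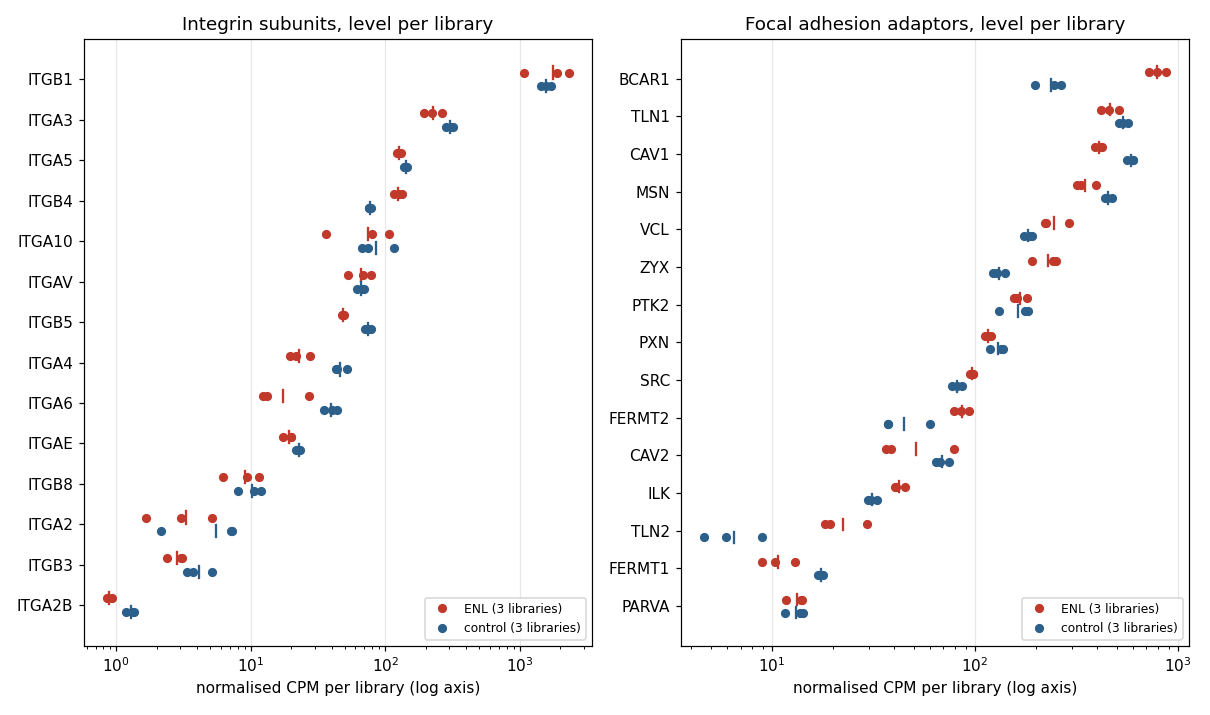
Normalised CPM in each library on a log axis for the integrin subunits (left) and adaptors (right) that average at least 1 CPM in a group. Points are libraries and short bars are group means, with ENL above control in each row, and the ENL points of BCAR1 (720 to 874 CPM) stand clear of its control points (197 to 267 CPM) while those of ITGB1 straddle them.

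Of the laminin-binding subunits, ITGB4 rose and ITGA6 and ITGA3 fell. ITGB4 (chromosome 17, 75721328 to 75757818, plus strand, GRCh38) encodes the beta subunit of the hemidesmosome, which binds laminin and pairs with the ITGA6 product alone. Its levels were 115, 126 and 134 CPM in ENL libraries 1, 2 and 3 and 76.2, 75.8 and 78.1 CPM in control libraries 1, 2 and 3. All ENL libraries lay above all control libraries, and ITGB4 rose by 0.70 ± 0.08 on the log2 scale (SE, adjusted p = 0.000929). ITGA6 (chromosome 2, 172427354 to 172506282, plus strand), its partner, had 13.1, 12.3 and 26.9 CPM in ENL and 43.4, 34.8 and 40.2 CPM in control. ENL library 3 lay between the other ENL libraries and the controls, without overlap with the controls. ITGA6 fell by 1.18 ± 0.32 on the log2 scale (adjusted p = 0.0299). ITGA3, which pairs with ITGB1 to bind laminins, had 195, 221 and 262 CPM in ENL and 281, 312 and 322 CPM in control, and the lowest control library stood close above the highest ENL library. ITGA3 fell by 0.43 ± 0.12 (adjusted p = 0.0289). ITGA7, the muscle laminin receptor subunit, was near 1 CPM in both groups and did not pass (-0.05 ± 0.36 on the log2 scale, adjusted p = 0.926). The call of ITGA6 was lost without ENL library 1 (adjusted p = 0.0826), ENL library 2 (0.0744), control library 1 (0.0852), control library 2 (0.0606) or control library 3 (0.0800). That of ITGA3 was lost without ENL library 1 (0.0758), ENL library 2 (0.0783), control library 2 (0.0832) or control library 3 (0.0947).

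Among receptors for fibronectin, vitronectin and other proteins with an RGD sequence, ITGB5 fell and ITGAV, ITGA5 and ITGB3 did not pass. ITGB5, a partner of ITGAV in a vitronectin receptor, had 48.7, 49.5 and 47.4 CPM in ENL and 71.3, 78.2 and 74.5 CPM in control. The groups stood well apart, and ITGB5 fell by 0.62 ± 0.08 on the log2 scale (adjusted p = 0.00133). ITGAV itself had 68.5, 52.9 and 77.8 CPM in ENL and 70.1, 62.0 and 66.9 CPM in control, overlapping, and its difference was 0.00 ± 0.15 (adjusted p = 0.991). ITGA5, the alpha subunit of the main fibronectin receptor, had 122, 124 and 132 CPM in ENL and 139, 141 and 145 CPM in control. Its ENL libraries all lay below the controls, but the difference of -0.17 ± 0.07 did not pass (adjusted p = 0.0975). It passed without ENL library 3 (-0.19, adjusted p = 0.0459) and, among other scalings, on library totals (-0.37, adjusted p = 0.0115). ITGB3, the other classic partner of ITGAV, was low at 3.09, 2.38 and 3.05 CPM in ENL and 3.72, 5.17 and 3.36 CPM in control, and its difference of -0.52 ± 0.23 did not pass (adjusted p = 0.110).

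ITGB1, which pairs with most alpha subunits, had 1900, 1084 and 2321 CPM in ENL and 1443, 1574 and 1721 CPM in control. The ENL libraries spread on both sides of the controls, with a coefficient of variation of 35.5% in ENL and 8.82% in control, and the log2 fold change was 0.16 ± 0.27 (adjusted p = 0.663). Without ENL library 2 it was 0.42 (adjusted p = 0.0533), and without ENL library 3 it was -0.068 (adjusted p = 0.855), so its size and sign rest on single libraries. ENL library 2 was also the lowest of the ENL libraries for ITGAV, ITGA10, ITGB8 and ITGA2, the last 3 of which had log2 fold changes of -0.21 ± 0.42, -0.17 ± 0.26 and -0.76 ± 0.58 and did not pass. Without that library these were 0.12, 0.042 and -0.44, and that of ITGAV was 0.14, and none passed. ITGA2, a collagen receptor subunit, had 3.02, 1.67 and 5.13 CPM in ENL and 2.15, 7.18 and 7.29 CPM in control. The groups overlap, and control library 1 lay far below the other controls. ITGA10, another collagen receptor subunit that is named here after its values were seen, had 79.9, 36.5 and 106 CPM in ENL and 116, 67.1 and 74.3 CPM in control, a wide spread within both groups.

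ITGA4, which forms receptors for fibronectin and for the vascular adhesion molecule VCAM, had the smallest adjusted p among the alpha subunits. It had 21.6, 19.5 and 27.7 CPM in ENL and 52.2, 43.7 and 42.9 CPM in control. The groups stood apart by more than their own range, and ITGA4 fell by 1.01 ± 0.16 on the log2 scale (adjusted p = 0.00284). Its relative ITGA9 and the collagen receptor subunits ITGA1 and ITGA11 averaged 0.0787 to 0.147 CPM in ENL and 0.252 to 0.363 CPM in control and did not pass, and neither did the leukocyte beta subunit ITGB2 (0.211 CPM in ENL and 0.437 in control) or the platelet subunit ITGA2B (0.880 and 1.28). ITGAE, the alpha subunit that binds E-cadherin, had 20.0, 19.9 and 17.4 CPM in ENL and 21.9, 23.0 and 23.2 CPM in control. Its groups stood apart, but the difference of -0.25 ± 0.10 did not pass (adjusted p = 0.101). ITGAE shares 427 exon bases with HASPIN on the opposite strand, and the sum of both passed (-0.36, adjusted p = 0.0198). That sum holds all counts of HASPIN, so it cannot tell how ITGAE itself moved. Of the 14 alpha subunits tested, 0 were called higher by edgeR, DESeq2 or limma-voom, and 0 were higher at an unadjusted p below 0.05, while 3 were called lower and 6 were lower at that unadjusted level. The share called lower, 21.4%, was near the 18.4% of all genes, and 20.0% of all genes were called higher. That share includes barely detected subunits. The 3 called lower, ITGA3, ITGA4 and ITGA6, averaged at least 5 CPM over all libraries. So did ITGAV, ITGA5, ITGA10 and ITGAE, which were not called, and the other alpha subunits tested averaged less. Of all genes at that level 19.1% were called lower. The share of all genes at the unadjusted level was not counted, so no weight is put on the 6. ITGB7, the partner of ITGA4 in lymphocyte homing, had 0.264, 0.250 and 0 CPM in ENL and 1.18, 0.864 and 0.729 CPM in control, and did not pass (adjusted p = 0.0965). It passed without ENL library 3 (adjusted p = 0.0216), in DESeq2 (0.0353) and in limma-voom (0.0480). ITGB7 shares 1886 exon bases with ZNF740 on the opposite strand, and the sum of both gave -0.84 (adjusted p = 0.000612). All counts of ZNF740 are in that sum, so it cannot tell how ITGB7 itself moved.

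Of the talins and kindlins, the proteins that switch integrins on, TLN2 and FERMT2 rose, FERMT1 fell and TLN1 did not pass. TLN2 (chromosome 15, 62390526 to 62844631, plus strand) had 18.3, 19.4 and 29.3 CPM in ENL and 5.92, 4.61 and 8.95 CPM in control. Even the lowest ENL library had more than the highest control library, and TLN2 rose by 1.78 ± 0.30 on the log2 scale, 3.44-fold (adjusted p = 0.00444). TLN1, the widely expressed talin, had 419, 457 and 515 CPM in ENL and 513, 534 and 568 CPM in control. The ranges touch through ENL library 3, and the difference of -0.22 ± 0.10 did not pass (adjusted p = 0.124), although it did without that library (-0.28, adjusted p = 0.0268). Per kilobase, TLN1 remained far above TLN2, at 52.5 against 1.88 CPM per kb in ENL and 61.0 against 0.547 in control. FERMT2 (chromosome 14, 52857268 to 52952435, minus strand), the kindlin of mesenchymal cells, had 85.6, 79.2 and 93.9 CPM in ENL and 60.1, 37.1 and 37.1 CPM in control, where control library 1 stood above the others. FERMT2 rose by 0.95 ± 0.20 on the log2 scale (adjusted p = 0.0113). FERMT1, the kindlin of epithelia, had 8.93, 10.3 and 12.9 CPM in ENL and 16.9, 17.3 and 17.8 CPM in control, with no overlap, and fell by 0.69 ± 0.15 (adjusted p = 0.0123).

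Within a library the ratio of a gene pair does not depend on how libraries are scaled, so 5 pairs of paralogues or receptor partners were compared in this way. The choice of pairs followed a look at the values. The log2 ratio of TLN2 to TLN1 was -4.40 ± 0.23 in ENL and -6.43 ± 0.43 in control (SD, n = 3 each), a difference of 2.02. FERMT2 to FERMT1 came to 3.02 ± 0.21 in ENL and 1.33 ± 0.43 in control, a difference of 1.69. ITGB4 to ITGA6 came to 2.93 ± 0.55 in ENL and 0.96 ± 0.16 in control, a difference of 1.97, and ITGB5 to ITGAV to -0.43 ± 0.31 and 0.17 ± 0.16, a difference of -0.61. In these 4 pairs the groups did not overlap, which gives p = 0.10 in an exact two-sided permutation test, the smallest that 3 against 3 libraries allow, and 0.125 after adjustment over the 5 pairs. For FERMT2 to FERMT1 and ITGB4 to ITGA6 this outcome was fixed, as FERMT2 and ITGB4 lay above and FERMT1 and ITGA6 below all controls in every ENL library. With pairs chosen after the values were seen, these p-values add no support to the single-gene results. CAV2 to CAV1 had a mean of -3.10 in both groups, with SDs of 0.68 in ENL and 0.08 in control (exact permutation p = 1).

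**Figure D3:**
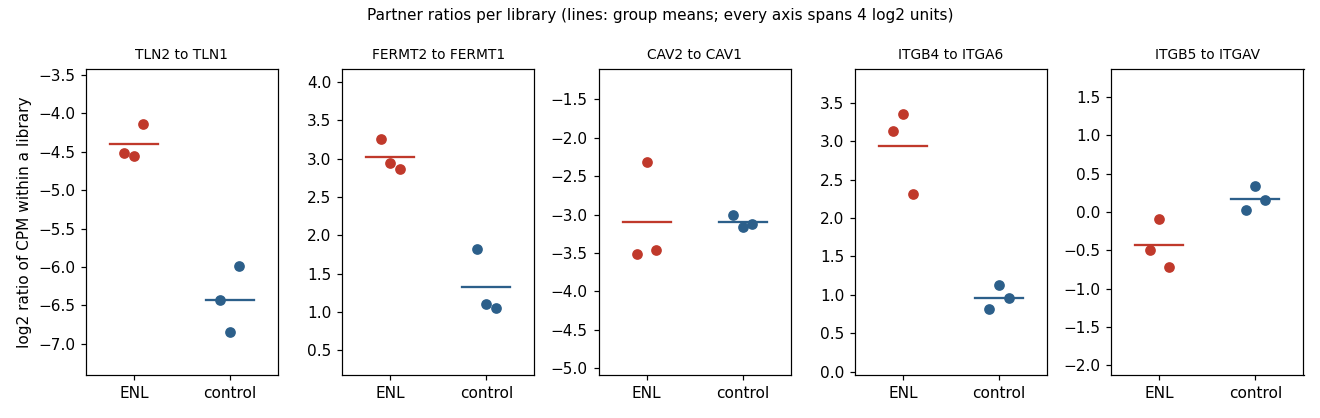
Log2 ratio of the CPM of a gene pair within each library, ENL left and control right, with group means as lines. Only the shift between groups is to be read, since the ratios are not per length: the TLN2 to TLN1 ratio lies at -4.56 to -4.13 in ENL and -6.86 to -5.99 in control, and the CAV2 to CAV1 ratio overlaps, with ENL library 2 far above the other ENL libraries.

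Sequences just before the start annotated by RefSeq are shown for TLN2, ITGA4, FERMT2 and ZYX, the called members with the largest absolute log2 fold change among those with a single promoter in the RefSeq table (GRCh38.p14), which matched 28 of the 41 members. Each runs 5′ to 3′ on the gene's strand over the 250 bases before the start, and capitals mark the GC box (GGGCGG or its complement CCGCCC). The windows are chr15:62390300-62390549 (plus strand) for TLN2, chr2:181457136-181457385 (plus) for ITGA4, chr14:52951051-52951300 (minus) for FERMT2 and chr7:143381095-143381344 (plus) for ZYX. GENCODE places some gene starts further upstream. By its spans the windows of FERMT2 (start at 52952435) and ZYX (143381080) lie wholly inside the gene. Those of ITGA4 (181457202) and TLN2 (62390526) lie partly inside, so the windows may hold transcribed sequence.
TLN2: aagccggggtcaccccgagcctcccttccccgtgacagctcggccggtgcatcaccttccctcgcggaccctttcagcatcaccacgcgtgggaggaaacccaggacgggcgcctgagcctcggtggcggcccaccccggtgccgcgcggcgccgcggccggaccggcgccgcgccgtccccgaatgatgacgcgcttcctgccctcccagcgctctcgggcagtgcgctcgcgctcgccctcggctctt
ITGA4: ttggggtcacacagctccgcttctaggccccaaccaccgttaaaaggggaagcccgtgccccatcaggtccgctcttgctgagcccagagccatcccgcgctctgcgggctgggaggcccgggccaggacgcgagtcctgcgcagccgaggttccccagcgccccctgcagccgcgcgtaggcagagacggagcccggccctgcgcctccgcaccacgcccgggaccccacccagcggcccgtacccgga
FERMT2: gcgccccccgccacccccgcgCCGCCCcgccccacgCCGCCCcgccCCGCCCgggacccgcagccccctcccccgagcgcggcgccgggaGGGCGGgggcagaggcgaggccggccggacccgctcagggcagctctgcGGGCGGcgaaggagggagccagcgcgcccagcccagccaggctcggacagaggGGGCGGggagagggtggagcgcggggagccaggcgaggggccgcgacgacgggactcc
ZYX: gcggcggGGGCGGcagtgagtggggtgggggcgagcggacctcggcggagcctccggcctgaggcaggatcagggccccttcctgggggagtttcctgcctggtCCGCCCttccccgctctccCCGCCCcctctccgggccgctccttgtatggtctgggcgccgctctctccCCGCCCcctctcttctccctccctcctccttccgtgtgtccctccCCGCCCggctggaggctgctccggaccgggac
FERMT2 held 6 GC boxes and ZYX 5, counted without overlap on both strands, and TLN2 and ITGA4 held 0. A GC box stood in 26 of the 42 windows of members and in 42.6% of all 35116 windows in the table. Searched in the same way, the CCAAT box (CCAAT) was found in 5 of the 42 windows against 32% of all, the TEAD motif (GGAATG) in 5 against 11.9%, the AP-1 motif (TGANTCA) in 1 against 6.57% and the serum response element named CArG box in 1 against 1.16%. None of the 4 printed windows held any of these other motifs. The windows were not measured here, and a match is a run of letters only.

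BCAR1 (chromosome 16, 75228187 to 75268053, minus strand), which encodes the scaffold p130Cas that is phosphorylated by SRC when cells adhere, had the smallest adjusted p of all members. It had 720, 874 and 786 CPM in ENL and 245, 267 and 197 CPM in control. The lowest ENL library had well over the highest control library, and BCAR1 rose by 1.75 ± 0.14 on the log2 scale, 3.36-fold (adjusted p = 0.000196). Per kilobase BCAR1 was the highest adaptor in ENL, at 195 CPM per kb, and at 58.2 in control it lay below CAV1 (184), MSN (115) and TLN1 (61.0). The summed level of the 15 adaptors was 2915, 3145 and 3223 CPM in ENL and 2698, 2669 and 2693 CPM in control, with no overlap. On library totals alone, without scaling by trimmed means, the groups overlapped in this sum. With that scaling but without BCAR1, the sum was 2194, 2272 and 2437 CPM in ENL and 2453, 2402 and 2496 CPM in control, so the groups then overlapped and the ENL mean lay below. PTK2, which encodes focal adhesion kinase, had 156, 162 and 180 CPM in ENL and 183, 132 and 176 CPM in control, overlapping, and its difference was 0.02 ± 0.14 (adjusted p = 0.927).

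SRC, the tyrosine kinase that acts with focal adhesion kinase, had 94.4, 98.1 and 97.5 CPM in ENL and 77.2, 81.7 and 86.5 CPM in control. The groups did not overlap, and SRC rose by 0.24 ± 0.08 on the log2 scale (adjusted p = 0.0430). This call was the least stable of the 15, as it was lost in 10 of 17 other settings. It was lost without ENL library 1 (adjusted p = 0.0833), ENL library 2 (0.0908), control library 1 (0.144), control library 2 (0.127) or control library 3 (0.0684), with the replicate number as a block (0.0536) and on library totals, where the difference was 0.034 (0.761).

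Of the 6 linkers on the actin side of the adhesion, 3 rose, 1 fell and PXN and PARVA did not pass. ZYX, zyxin, a LIM protein that gathers where actin is under tension, had 243, 252 and 191 CPM in ENL and 122, 141 and 129 CPM in control. ENL library 3 was the lowest of its group, still above all controls, and ZYX rose by 0.80 ± 0.12 on the log2 scale (adjusted p = 0.00268). ILK, integrin-linked kinase, a pseudokinase that bridges beta tails and parvin, had 41.0, 45.3 and 40.3 CPM in ENL and 29.6, 32.8 and 30.6 CPM in control, again apart. ILK rose by 0.44 ± 0.09 (adjusted p = 0.00952), but not on library totals (0.24, adjusted p = 0.0672). It shares 2374 exon bases with TAF10 on the opposite strand, and ILK with TAF10 added gave 0.54 (adjusted p = 0.0053). With all counts of TAF10 in it, that sum cannot tell how ILK itself moved. Vinculin, VCL, had 225, 221 and 290 CPM in ENL and 184, 174 and 191 CPM in control. All ENL libraries lay above the controls, and VCL rose by 0.42 ± 0.12 (adjusted p = 0.0285).

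That call of VCL was lost without control library 1 (adjusted p = 0.0805), control library 2 (0.0936) or control library 3 (0.0623), with upper-quartile scaling (0.0535) and on library totals (0.247). With these lost calls the rise of VCL is uncertain. VCL shares 1109 exon bases with AP3M1 on the opposite strand, and VCL with AP3M1 added gave 0.23 (adjusted p = 0.147). That sum holds all counts of AP3M1, so it cannot tell how VCL itself moved. Paxillin, PXN, a scaffold of the early adhesion, had 120, 112 and 116 CPM in ENL and 134, 119 and 137 CPM in control, and its difference of -0.17 ± 0.08 did not pass (adjusted p = 0.154). PXN passed with upper-quartile scaling (-0.25, adjusted p = 0.0498) and on library totals (-0.37, adjusted p = 0.0170). PARVA, the parvin that binds ILK and actin, averaged 13.2 CPM in both groups (adjusted p = 0.971). Moesin, MSN, which ties the membrane to cortical actin, had 318, 332 and 395 CPM in ENL and 438, 450 and 472 CPM in control, with no overlap. MSN fell by 0.38 ± 0.10 (adjusted p = 0.0233), a call lost without ENL library 1 (0.0764), ENL library 2 (0.0703), control library 1 (0.0556), control library 2 (0.0656) or control library 3 (0.0844).

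The caveolins, membrane proteins that form caveolae and hold integrins and SRC in their neighbourhood, were lower or did not pass. CAV1 (chromosome 7, 116524785 to 116561184, plus strand) had 416, 392.3 and 423 CPM in ENL and 600, 600.2 and 562 CPM in control. The groups were narrow and far apart, and CAV1 fell by 0.52 ± 0.07 on the log2 scale (adjusted p = 0.00208). CAV2, its partner from the same locus, had 36.3, 79.0 and 38.5 CPM in ENL and 74.5, 67.2 and 64.4 CPM in control, so that ENL library 2 lay above every control and the other ENL libraries below. Its difference was -0.42 ± 0.31 (adjusted p = 0.330), and without ENL library 2 it was -0.87 (adjusted p = 0.00312).

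**Figure D4:**
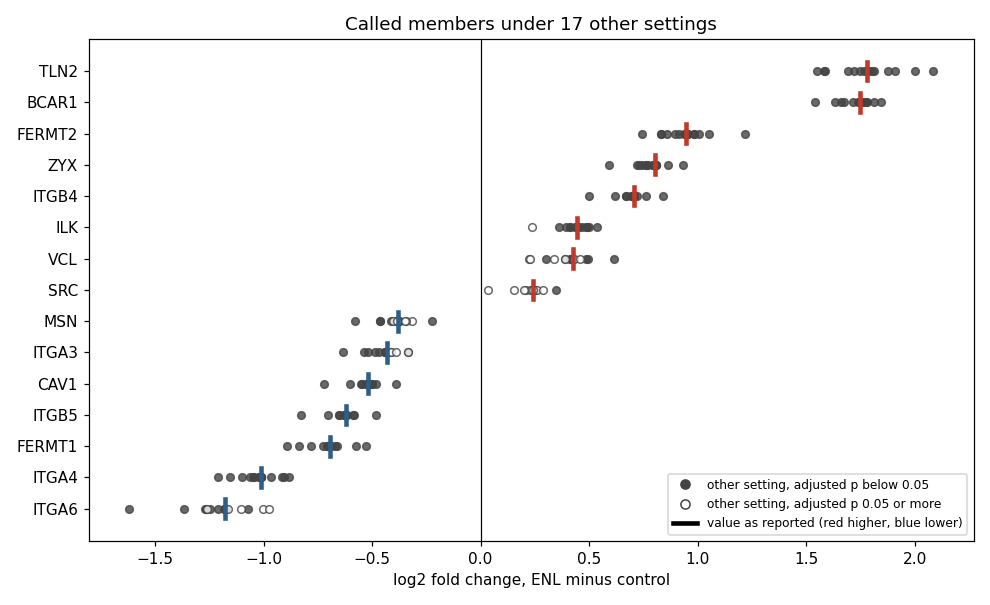
Log2 fold change of the 15 called members as reported (coloured bars) and under each of 17 other settings (points), filled where the adjusted p stayed below 0.05. No point crosses 0, and 9 members stayed past the threshold throughout, whereas SRC, VCL, ITGA6, MSN, ITGA3 and ILK lost their call in some settings.

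Ligands of integrins, most of them matrix proteins, moved in both directions. The list also holds the cell adhesion molecules ICAM1, which is among those that fell, and VCAM1, which did not pass. Of 29 tested, 9 rose (31%, against 20.0% of all genes) and 12 fell (41.4%, against 18.4%), with a median log2 fold change of -0.51 against -0.02 for all genes. CCN1, a matricellular ligand, rose by 1.30 ± 0.07 on the log2 scale to 1803 ± 50.0 CPM in ENL, against 731 ± 7.05 in control (SD, n = 3 each, adjusted p = 5.38e-05), and COL4A2, a basement membrane collagen chain gene, rose by 0.53 ± 0.07 (adjusted p = 0.0017). LAMA5, a laminin chain gene, fell by 1.47 ± 0.11 to 335 ± 41.3 CPM in ENL, against 930.4 ± 28.8 in control (adjusted p = 0.000142). COL5A1, a fibrillar collagen chain gene, fell by 0.93 ± 0.09 (adjusted p = 0.000387). No pairing of ligand with receptor was tested.

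Among 37 other focal adhesion components, 9 rose and 8 fell, with a median of -0.04. These shares, 24.3% and 21.6%, were near the 20.0% and 18.4% of all genes. The paxillin relative TGFB1I1 (Hic-5) rose by 1.62 ± 0.13 on the log2 scale, to 71.7 ± 10.2 CPM in ENL, against 23.3 ± 1.25 in control (SD, n = 3 each, adjusted p = 0.000196). TRIP6, a relative of zyxin, rose by 1.08 ± 0.08 (adjusted p = 0.000197). GIT2, a scaffold that binds paxillin, fell by 0.67 ± 0.11 (adjusted p = 0.00439), and ITGB1BP1, which binds the ITGB1 tail and competes with talin, fell by 0.53 ± 0.12 (adjusted p = 0.0130). Of 9 tested genes of the caveolar coat and of the ezrin, radixin and moesin family with its partners, 0 rose and 2 fell by edgeR (1 higher at an unadjusted p below 0.05, 1 higher in DESeq2 and 1 higher in limma-voom). The share that fell, 22.2%, was near the 18.4% of all genes. PACSIN2, a membrane-bending protein of caveolae, fell by 0.39 ± 0.09 (adjusted p = 0.0128), and EZR, ezrin, by 0.21 ± 0.07 (adjusted p = 0.0461). Without control library 3 the call of PACSIN2 was lost (adjusted p = 0.0541). EZR lost its call without any 1 of ENL library 1 (0.12), ENL library 2 (0.0917), control library 1 (0.107), control library 2 (0.103) and control library 3 (0.173), and with correction for transcript length and GC content its difference was -0.065 (0.330).

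**Figure D5:**
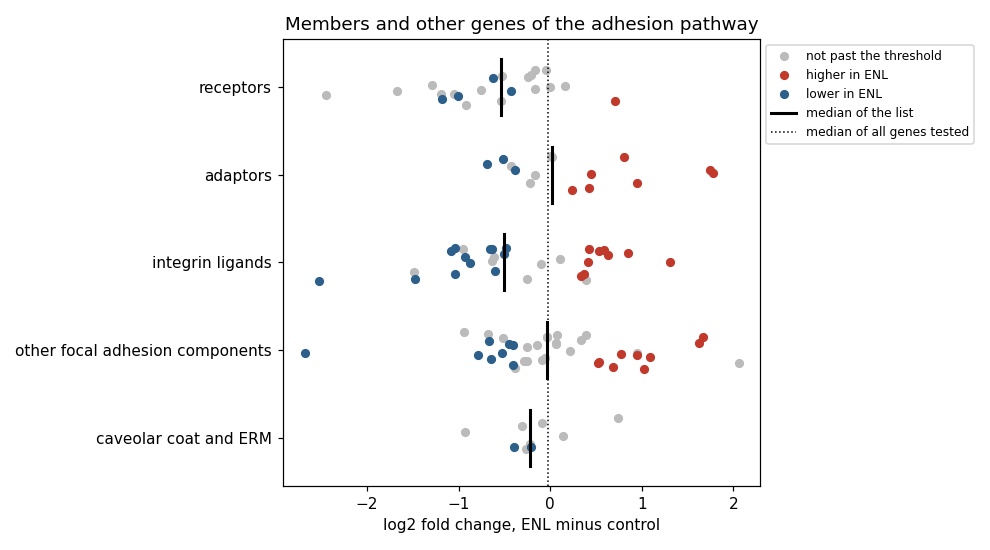
Log2 fold change of each tested gene in the receptors, the adaptors and the 3 other lists, with list medians as bars and the median of all genes as a dotted line. Red points passed the threshold higher in ENL and blue points lower: receptors and ligands have medians of -0.54 and -0.51, the adaptors and the other focal adhesion components of 0.02 and -0.04, and the caveolar and ezrin list of -0.22.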

How the data were processed

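RNA sequencing libraries of BT549 cells, 3 labelled ENL and 3 labelled control, were compared. The authors deposited 1 table with an estimated count per gene symbol and library. Tools named in the submitters' processing notes, without versions or roles, are StringTie, STAR, DESeq2 and FastQC, and the build is hg38. The sources used here do not give the annotation counted or whether strand was used. The values are whole numbers, but 70.8% to 73.1% of those from 4 to 43 fell on a multiple of 4 or 1 above. In that range as many whole numbers fit this pattern as do not, so an even spread would give a lower share. From this, 1 fragment was taken to be worth about 4 units, which is an estimate. Counting errors of low values are then larger than their size shows.

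Columns were matched to samples by title. Chi-square per degree of freedom was at least 20.2 for every pair within a group, so all 6 libraries were counted. Low genes were dropped by filterByExpr of edgeR at a minimum count of 10, libraries were scaled by TMM, and groups were compared by the quasi-likelihood test of edgeR without covariates (two-sided, Benjamini-Hochberg over 14086 genes, threshold 0.05). The procedure was tested on simulated data. Versions were DESeq2 1.42.0, limma 3.58.1, edgeR 4.0.16 and R 4.3.3.

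GENCODE 29, on GRCh38 (hg38), held 19809 of the 19923 symbols, among them all 41 members. Exon overlaps of at least 100 bases were found from it. Levels per length use the longest annotated transcript, a protein-coding one where possible, and the cells may express another. The counting could divide reads of overlapping genes, so these are uncertain.

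The members, classes and lists were chosen with earlier results of these data known. By rule, values in every library are given for the 14 called members with the largest change at 5 CPM or more in the higher group and for ITGB1, ITGB3, ITGB5, ITGA2, ITGA3, ITGA5, ITGA6, ITGAV, PTK2, PXN, VCL, TLN1, ILK, CAV1, CAV2, SRC and MSN, and each list contributes, per direction, the 2 genes of smallest adjusted p at that level. Alternatives were other scalings (size factors of DESeq2, upper quartile, library totals), other tests (DESeq2 Wald, limma-voom), other filters (none, or 10 CPM in 3 libraries), values divided by 4, a block for the replicate number, and leaving out each library. Chosen after seeing the data were a length and GC correction, sums of overlapping genes and the pair ratios.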

Additional observations from a re-analysis of the deposited data

How the results depend on the processing

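None of the 15 called members changed direction in the 17 settings tried, and 9 kept the call in all of them. ITGA1 did not pass and stayed under 0.5 CPM. Its sum with the overlapping PELO had the other direction (0.37 on the log2 scale, adjusted p = 0.0121), and that sum holds all counts of PELO. On library totals alone, 1804 genes were higher and 3996 lower, 8 receptors were lower, 4 adaptors higher and 5 lower, 3 ligands higher and 6 genes of the caveolar and ezrin list lower, and the medians were -0.23 for all genes, -0.75 for receptors, -0.19 for adaptors, -0.71 for ligands, -0.25 for other focal adhesion components and -0.43 for the caveolar and ezrin list. With upper-quartile scaling 5 adaptors were lower, and the medians were -0.11 for all genes, -0.068 for adaptors and -0.30 for the caveolar and ezrin list. With at least 10 CPM in 3 libraries the medians were 0.0020 for all genes, -0.25 for receptors and -0.29 for ligands, as fewer low genes were tested. With values divided by 4 they were -0.0094 for all genes and -0.35 for receptors. The length and GC correction gave 0.047 for all genes, 0.17 for adaptors, -0.30 for ligands and -0.071 for the caveolar and ezrin list. Summing overlapping genes counted 2 receptors as higher, but 1 of these was the sum of ITGA1 and PELO, not ITGA1 alone. In the caveolar and ezrin list 1 gene was higher in the DESeq2 Wald test and 1 in limma-voom, and 1 was lower without a filter. The cause of these moves was not tested beyond what each setting does by construction.

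Leaving out each library in turn gave 2 to 6 receptors lower, 3 to 10 other focal adhesion components lower, 0 to 1 caveolar and ezrin genes higher and 0 to 2 lower. The adaptor median ranged from -0.079 to 0.11, so its sign depends on single libraries, and the ligand median from -0.59 to -0.32. Without ENL library 3, the library that stood apart, 8 members were higher and 10 lower.

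Same-numbered libraries of the 2 groups deviated together weakly (correlations of 0.03, 0.05 and 0.08), so the numbers were not taken to pair them. With the replicate block 2631 genes were higher and 2310 lower, 1 gene of the caveolar and ezrin list was lower, and SRC and EZR lost their calls. No other called member lost its call with the block.

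Among the barely detected receptors the standard error on the log2 scale was 1.07 for ITGAM, 1.01 for ITGB7, 0.79 for ITGB2 and 0.77 for ITGA1. Changes of about those sizes were not detectable in these genes at this depth, and larger ones could be missed too. The change of -2.45 in ITGB7 did not pass in the quasi-likelihood test of edgeR (adjusted p = 0.0965).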

Other observations

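Integrin-related symbols outside the rule were measured as well. ITGB1BP2, a chaperone-like protein of muscle that binds the ITGB1 tail, had 0.923, 1.07 and 0.831 CPM in ENL and 2.66, 2.62 and 2.42 CPM in control, with no overlap, and fell by 1.45 ± 0.22 on the log2 scale (edgeR's quasi-likelihood test, adjusted p = 0.00262). ITGBL1, a secreted protein with integrin-like repeats, had 16.5, 12.4 and 18.3 CPM in ENL and 16.7, 17.6 and 18.4 CPM in control, and its difference of -0.16 ± 0.16 did not pass (adjusted p = 0.468). ITGB3BP, a centromere protein named for its binding to the ITGB3 tail, averaged 41.5 ± 5.94 CPM in ENL and 51.3 ± 2.91 CPM in control (SD, n = 3 each), and the difference of -0.31 ± 0.12 did not pass (adjusted p = 0.0861).

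LIMS1, the LIM protein PINCH, which binds ILK, had 49.7, 9.13 and 54.2 CPM in ENL and 16.2, 5.23 and 5.78 CPM in control. ENL library 2 lay among the controls, and the difference of 2.06 ± 0.79 on the log2 scale did not pass (adjusted p = 0.0898). FERMT3, the kindlin of blood cells, averaged 0.286 CPM in ENL and 1.84 CPM in control, and fell by 2.68 ± 0.28 (adjusted p = 0.000646). Both were chosen after their values were seen.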
